A study of Sus scrofa with 36 samples.

Results

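The transcription factors that set and keep hepatocyte identity were followed in pig liver through 9 genes, HNF4A, FOXA1, FOXA2, CEBPA, CEBPB, CEBPD, PROX1, NR1I2 and NR1I3, out of 10505 gene symbols with a measured probe. The members were every probe that the array files name for one of these genes by symbol, accession, gene number or description and whose spot the scanner marked as well above background on 6 or more of the 36 arrays. All 32 such probes on the array passed, among 44796 kept probes of 60305. RNA came from the left lobe of the liver of 36 castrated male pigs of 3 genetic types: Large White (LW, a commercial European breed), Creole (CR, a local Caribbean breed) and their cross (F1), with 12 animals each. In every type, 6 pigs were kept at thermoneutrality (TN, 24 °C) and 6 were exposed to heat stress (HS). The labels give 30 °C for the HS animals and the growth protocol gives 5 days at 32 °C. Because the heat-exposed pigs were slaughtered later than the TN pigs, the temperature effect and the effect of slaughter day and added age cannot be told apart. The study also reports lower feed intake under heat and had no TN group with matched intake. The effect of eating less therefore cannot be told apart from that of heat either. The study's methods arranged the pigs in blocks of littermates, but the labels do not say which animals share a litter, sire or pen, so p-values measure the spread between these animals as if they were unrelated.

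HNF4A is a nuclear receptor that binds the regulatory regions of a large share of hepatocyte genes, and FOXA1 and FOXA2 are forkhead pioneer factors that open chromatin at liver enhancers. The C/EBP proteins are leucine zipper factors: CEBPA sustains metabolic gene expression in the resting hepatocyte, whereas CEBPB and CEBPD are known for their part in the acute phase response, and CEBPB also acts in gluconeogenesis and regeneration. PROX1 is a homeobox factor needed for hepatocyte migration and fate in the fetal liver, acts as a corepressor of HNF4A and other nuclear receptors, and also marks lymphatic endothelium. NR1I2 encodes PXR and NR1I3 encodes CAR, the xenobiotic-sensing receptors that induce cytochrome P450, conjugation and transporter genes.

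The median spot signal was 70.0 to 92.0 intensity units an array, 39644 to 44025 of 60306 spots were well above background, and correlations between arrays ran from 0.979 to 0.994. On the first principal component, which held 18.6% of the variance, 5 animals went against the other animals of their labelled type. LW TN replicates 1 and 6 (-4.83 and -3.04) lay away from the other 10 LW animals (-44.2 to -24.8) and toward the F1 and CR animals, and F1 HS replicates 1 and 2 and F1 TN replicate 3 (-17.0, -21.3 and -18.1) lay away from the other F1 animals (-1.31 to 36.9) and toward LW. The numbers in the sample titles run in 1 block per type except at these 2 LW TN and 2 F1 HS animals, whose numbers interleave. Whether labels were exchanged was not tested, and the labels were kept. Calls that appear without these 5 animals are given beside the breed comparisons, each of which depends on the type labels. The animals with interleaved numbers are labelled TN in LW and HS in F1, so the heat comparisons depend on these labels too. Without the 5 animals, 0 of 32 member probes were called between HS and TN, beside 317 of 44796 kept probes. The 5 were picked from these same values for lying away from their type. Leaving them out therefore favours larger breed differences, and calls that appear without them are no independent support. Of 12 measured hepatocyte marker genes, 11, among them ALB, APOA1 and TTR, were above background on all 36 arrays and CYP8B1 on 8. Their summed signal spanned 21.4 to 21.6 on the log2 scale over all animals, a range that quantile normalization itself limits for very bright probes. In whole tissue, fewer cells of a type and less RNA per cell cannot be told apart.

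Of the 32 member probes, 28 were above background on all 36 arrays. The exceptions were FOXA2 O6866 (32 arrays), HNF4A O11922 (31), CEBPD O10651 (32) and CEBPD A_72_P295134 (23). HNF4A, FOXA1 and CEBPB had 5 probes each, CEBPA and PROX1 4, CEBPD and NR1I2 3, NR1I3 2 and FOXA2 1. Each gene was represented by its kept probe of highest mean signal. Brightness differs between probes of 60 bases for reasons of sequence, so no gene's signal was set against another's. Several probes of a gene share bases and are not independent measurements. The CEBPB probes A_72_P213602, A_72_P642520 and A_72_P672137 come from one deposited 3′ end sequence and share 29 to 46 bases in pairs. FOXA1 O5744 and A_72_P219247 carry the same 60 bases, and over 36 arrays they differed by -0.11 ± 0.085 log2 units (mean and SD), a measure of the error between spots of one sequence. FOXA1 A_72_P519827 shares 48 bases with both. Probe A_72_P344038 was assigned to CEBPA through an accession only, and its description names a bacterial AfsA-like protein, so its values are given with that doubt.

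An HNF4A probe pair is shown first because both probes are named for the gene but read opposite strands of it. Sequences are written 5′ to 3′, and capitals mark the 33 bases that are reverse complements of each other.
HNF4A A_72_P440506: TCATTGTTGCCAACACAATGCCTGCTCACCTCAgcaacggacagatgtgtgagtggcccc
HNF4A O11922: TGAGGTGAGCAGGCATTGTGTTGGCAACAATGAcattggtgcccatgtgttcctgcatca
Probe O11922 had group means of 5.37 to 5.69 on the log2 scale, and in LW TN animals it was above background on 3 of 6 arrays.

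The next pair is shown because the largest breed difference among the representative probes was carried by PROX1 and was seen by both probes. Capitals mark the 41 bases that they share on the same strand.
PROX1 A_72_P321423: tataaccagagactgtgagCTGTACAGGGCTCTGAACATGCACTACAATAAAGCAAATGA
PROX1 O12600: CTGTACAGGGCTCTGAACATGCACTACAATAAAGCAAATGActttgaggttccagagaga
The remaining PROX1 probes, A_72_P580027 and A_72_P696404, share no long stretch with these.

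**Figure D1:**
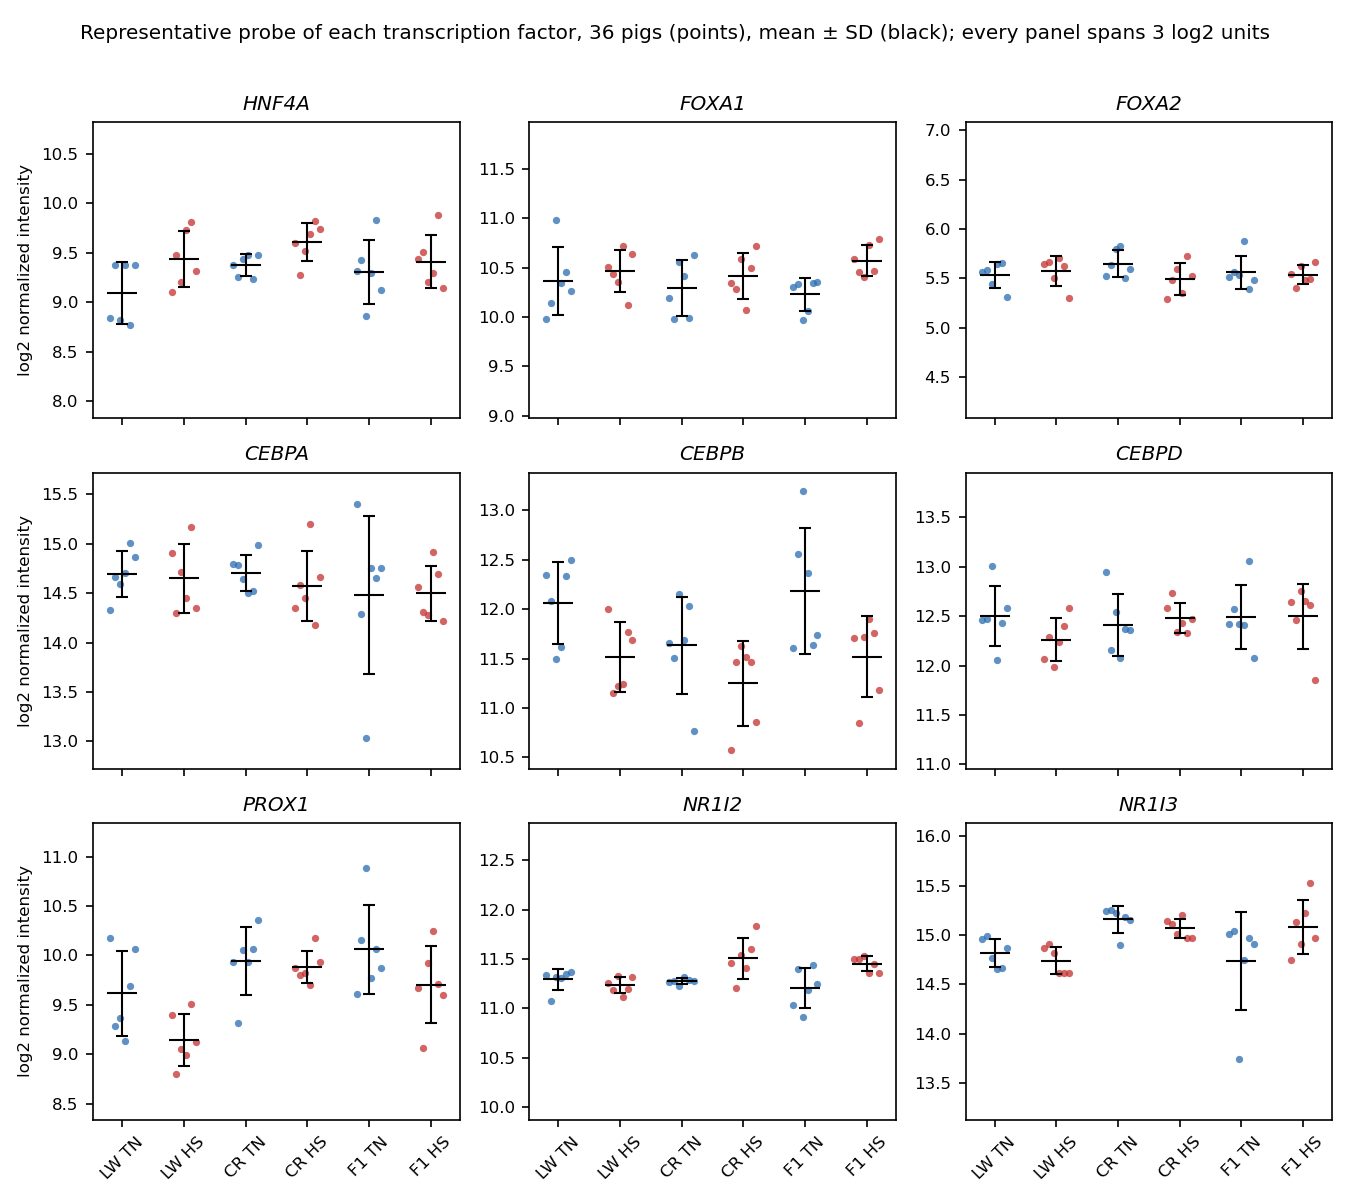
Normalized signal (log2 intensity, vertical axis) of the representative probe of each of the 9 factors in the 6 groups of 6 pigs (TN blue, HS red), with points for animals and black bars for mean ± SD. CEBPB spread from 10.57 to 13.19 and NR1I2 from 10.92 to 11.83, and 1 animal, F1 TN replicate 3, held the lowest CEBPA and NR1I3 and the highest CEBPB and PROX1 values.

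When the 6 group means of each representative probe were ordered, 42 of 45 steps between neighbours were within the larger SD of the pair. The exceptions were the step from LW TN (9.62 ± 0.43, SD, n = 6) down to LW HS (9.14 ± 0.26) for PROX1, from F1 HS (11.45 ± 0.08) down to LW TN (11.30 ± 0.11) for NR1I2, and from CR HS (15.07 ± 0.10) down to LW TN (14.82 ± 0.14) for NR1I3. For CEBPB, the 3 TN groups occupied the upper ranks (F1 12.18, LW 12.06, CR 11.63) and the 3 HS groups the lower ranks (F1 11.52, LW 11.51, CR 11.25). For HNF4A, the 3 HS groups (9.41 to 9.61) lay above the 3 TN groups (9.09 to 9.38), with CR HS highest (9.61 ± 0.19) and LW TN lowest (9.09 ± 0.31). For FOXA1 the 3 HS groups (10.42 to 10.57) also lay above the 3 TN groups (10.23 to 10.36). For CEBPA (14.48 to 14.70) both F1 groups ranked lowest, with every step within the SD, and CEBPD (12.26 to 12.50) and FOXA2 (5.49 to 5.65) had no breed or temperature together at either end of the order.

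Heat exposure moved none of the 9 factors past the threshold. In the fit with breed as a covariate (limma, Benjamini-Hochberg adjustment over all kept probes, adjusted p under 0.05), 0 of 32 member probes were called between HS and TN, against 385 of 44796 probes (0.859%). At an unadjusted p under 0.05 there were 16 of 32 member probes, a larger share than the 5859 of 44796 kept probes (13.1%). These 16 belong to 6 genes and include the overlapping probes of FOXA1, CEBPB and PROX1. The values nearest the threshold were a lower CEBPB signal (-0.53 ± 0.14 log2 units, SE, adjusted p = 0.0642) and a higher NR1I2 signal (0.20 ± 0.05, adjusted p = 0.0685) in HS animals. The median difference was 0.00 over the member probes and 0.00 over all kept probes. Among the members, the CEBPB and PROX1 estimates were all negative and the FOXA1 and NR1I2 estimates all positive, so their median hides opposite directions.

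CEBPB probe A_72_P213602 ran from 11.50 through a median of 12.21 to 12.50 in LW TN animals and from 11.15 through 11.47 to 12.01 in LW HS animals. In CR it ran from 10.77 (median 11.67) to 12.16 at TN and from 10.57 (median 11.47) to 11.63 at HS. In F1 it ran from 11.61 (median 12.05) to 13.19 at TN and from 10.85 (median 11.71) to 11.90 at HS. TN and HS animals overlapped in every breed, yet 18 of 18 HS animals were below the TN mean of their own breed. Taken breed by breed, the HS minus TN difference was -0.55 for LW (95% interval -1.07 to -0.03), -0.38 for CR (-0.90 to 0.14) and -0.66 for F1 (-1.18 to -0.14), with adjusted p of 0.952, 0.794 and 0.393. On the 4 slides that allowed a breed-adjusted value, the difference lay between -0.82 and -0.02.

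The CEBPB probes A_72_P642520 and A_72_P672137, which overlap A_72_P213602, gave -0.52 each (adjusted p = 0.07 and 0.0701), while A_72_P399493, from the reference transcript, gave -0.25 (adjusted p = 0.267) and O11964 gave -0.03 (adjusted p = 0.939). All 5 estimates were below 0. By slide, A_72_P642520 ran from -0.78 to 0.07, A_72_P672137 from -0.87 to 0.05 and A_72_P399493 from -0.50 to 0.16. Each of these was lower in HS on 3 of 4 slides. O11964 ran from -0.09 to 0.26 and was higher in HS on 3 of 4 slides. The sizes differ between probes, so the size for the gene depends on which is read. The HS minus TN difference of A_72_P213602 passed the threshold with the authors' log2 values (-0.52, adjusted p = 0.0437), with slide as a fixed block (-0.53, adjusted p = 0.0473), and without LW TN replicate 3 (-0.57, adjusted p = 0.0473), F1 TN replicate 5 (-0.56, adjusted p = 0.0462) or CR TN replicate 6 (-0.59, adjusted p = 0.0359). Over 10 alternatives its adjusted p ran from 0.0437 to 0.187. Both overlapping probes also passed without LW TN replicate 3 or CR TN replicate 6, with adjusted p of 0.0433 to 0.0493.

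NR1I2, the PXR gene, had 3 probes with positive HS minus TN estimates of 0.11 to 0.20. Probe A_72_P444221 had medians of 6.68 in LW TN (range 6.57 to 6.81) and 6.93 in LW HS (6.72 to 7.03), of 6.65 in CR TN (6.35 to 6.81) and 6.72 in CR HS (6.46 to 6.99), and of 6.45 in F1 TN (6.38 to 6.55) and 6.70 in F1 HS (6.44 to 7.05). The temperatures overlapped in each breed, with 15 of 18 HS animals above their breed's TN mean. The difference was higher under heat on 4 of 4 slides, by 0.10 to 0.27. It passed the threshold with the processed signal (0.29, adjusted p = 0.0371) and without CR HS replicate 2 (0.22, adjusted p = 0.0361) or F1 HS replicate 4 (0.21, adjusted p = 0.0412), and over 10 alternatives its adjusted p ran from 0.0371 to 0.222. The brighter NR1I2 probe, A_72_P177521, gave 0.14 ± 0.05 (adjusted p = 0.19), as 0.23 in CR, 0.25 in F1 and -0.06 in LW. For the CAR gene NR1I3, the estimates were 0.06 (A_72_P177911, adjusted p = 0.849) and 0.15 (A_72_P160941, adjusted p = 0.322).

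The 5 probes of FOXA1 gave HS minus TN estimates of 0.12 to 0.23, with adjusted p from 0.156 to 0.624. The representative FOXA1 probe was above the breed's TN mean in 14 of 18 HS animals. FOXA1 medians at TN were 10.31 in LW, 10.30 in CR and 10.32 in F1, and at HS they were 10.47, 10.42 and 10.53. FOXA2 was read by 1 dim probe with 75% G and C bases, whose difference was -0.05 (95% interval -0.15 to 0.05, adjusted p = 0.782).

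The probes of HNF4A disagreed. A_72_P440506 gave 0.23 ± 0.08 (adjusted p = 0.186), A_72_P449980 and A_72_P704336 gave 0.11 each, and A_72_P156906, designed on an expressed sequence cluster, gave -0.30 ± 0.10 (adjusted p = 0.132). A_72_P156906 was below the breed's TN mean in 16 of 18 HS animals and lower on 4 of 4 slides. Its HS minus TN difference was 0.01 among LW animals, -0.30 among CR and -0.60 among F1 (unadjusted p = 0.000473 and adjusted p = 0.242 in limma for F1), and the test of the differences between breeds gave an unadjusted p of 0.0302 and an adjusted p of 0.995.

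All 4 PROX1 estimates were negative between HS and TN (-0.07 to -0.30, adjusted p from 0.212 to 0.806). The representative PROX1 probe was below the breed's TN mean in 16 of 18 HS animals, and its difference came to -0.47 among LW animals (95% interval -0.87 to -0.08), -0.06 among CR (-0.46 to 0.34) and -0.36 among F1 (-0.76 to 0.04). CEBPA (-0.05 to -0.13 over 4 probes) and CEBPD (-0.06 to 0.05 over 3 probes) had adjusted p of at least 0.658. The 95% intervals of their representative probes were -0.32 to 0.21 and -0.24 to 0.13, from 18 animals against 18.

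**Figure D2:**
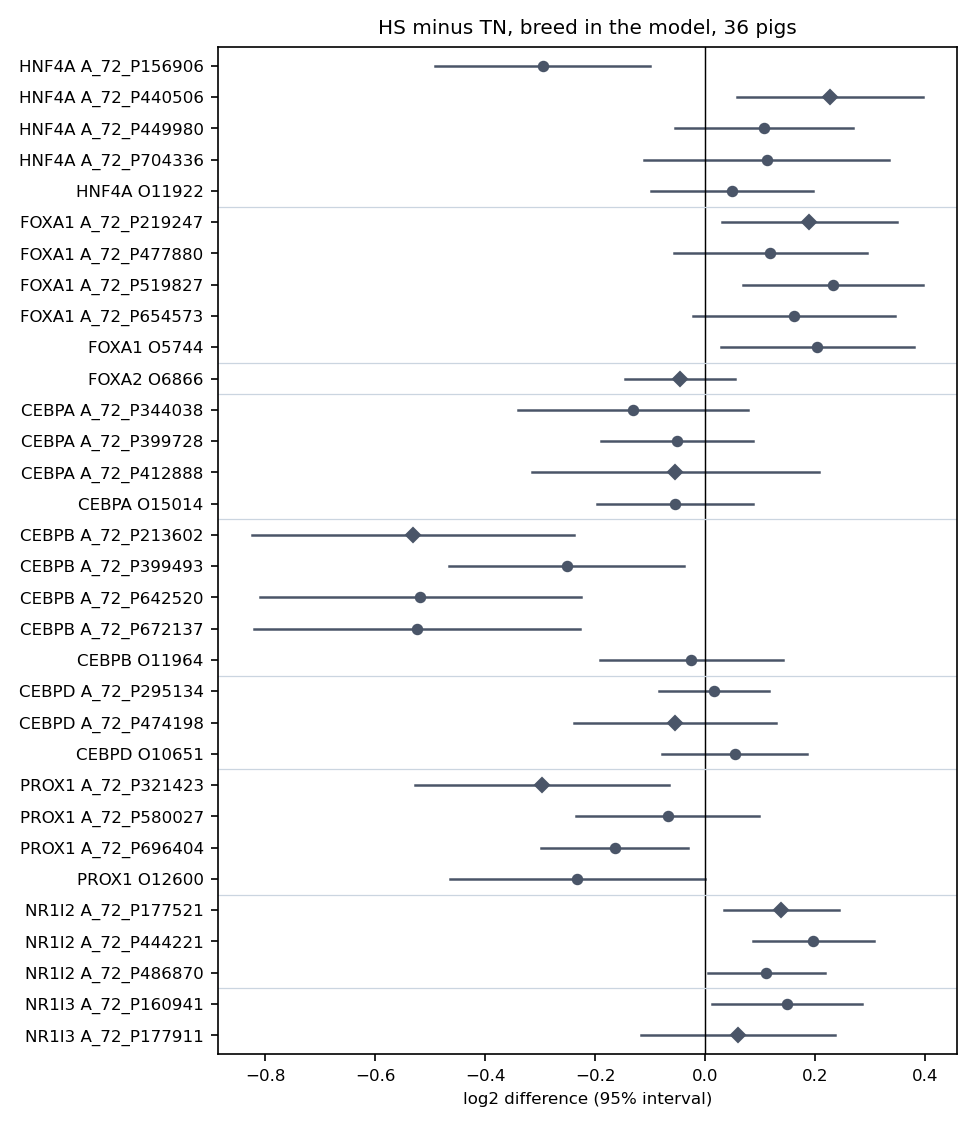
Difference between HS and TN animals (log2 units, horizontal axis, with 95% interval) for each of 32 probes of the 9 factors, with breed in the model; diamonds are representative probes and circles the others. The 3 overlapping CEBPB probes lie near -0.5, all 5 FOXA1 and all 3 NR1I2 probes lie above 0, all 4 PROX1 probes lie below 0, and the HNF4A probes fall on both sides.

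Within single breeds, 0 of 32 member probes were called in LW, CR or F1 (limma), with 10, 2 and 13 probes at an unadjusted p under 0.05. Over all kept probes, 0 were called in LW (0%), 0 in CR (0%) and 4 in F1 (0.00893%), beside 2294, 3314 and 4169 at an unadjusted p under 0.05. The test of whether the heat difference varied between breeds called 0 of 32 member probes and 0 of 44796 probes (0%), with 3 member probes and 1676 of all probes at an unadjusted p under 0.05. Those 3 were CEBPD O10651, NR1I2 A_72_P177521 and HNF4A A_72_P156906. An effect seen in one breed and not in another is thus not shown to differ between them.

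In both comparisons with LW, a smaller share of member probes than of all kept probes was called. Between CR and LW, 7 of 32 member probes of 5 genes were called (limma), 6 higher and 1 lower in CR, against 26.5% of all kept probes (13.6% higher and 12.9% lower). The share of member probes, 21.9%, was near that background. PROX1 was higher in CR by 1.45-fold (0.53 ± 0.14 log2 units, adjusted p = 0.00461), NR1I3 by 1.26-fold (0.33 ± 0.11, adjusted p = 0.0187) and 1 HNF4A probe by 1.42-fold (0.50 ± 0.13, adjusted p = 0.00539), whereas 1 CEBPB probe was lower by 1.36-fold (-0.45 ± 0.13, adjusted p = 0.00949).

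PROX1 probe A_72_P321423 ran from 8.79 through a median of 9.32 to 10.18 in LW, from 9.31 through 9.93 to 10.36 in CR and from 9.07 through 9.82 to 10.88 in F1 (n = 12 each). The breeds overlapped, with 11 of 12 CR and 11 of 12 F1 animals above the LW mean. O12600, which shares the capitalized bases shown above, gave 0.51 (adjusted p = 0.00704), and the separate probe A_72_P580027 gave 0.28 (adjusted p = 0.0369). A_72_P696404 gave 0.15 (adjusted p = 0.17), and 0.20 (adjusted p = 0.0419) without the 5 animals. The CR minus LW difference of A_72_P321423 was 0.31 to 0.90 on the 4 slides and 0.67 without the 5 animals named above. That of A_72_P580027 lost its call when any 1 of 12 animals was left out, with adjusted p up to 0.0749 without LW HS replicate 2.

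NR1I3 probe A_72_P177911 ran from 14.61 through a median of 14.79 to 14.99 in LW and from 14.90 through 15.15 to 15.25 in CR, and 12 of 12 CR animals were above the LW mean, 9 of them above every LW animal. The difference was positive on 4 of 4 slides (0.28 to 0.64). It lost its call under 1 of 10 alternatives, the processed signal (0.25, adjusted p = 0.0749). The other NR1I3 probe, A_72_P160941, did not follow it (-0.12, adjusted p = 0.31, and lower in CR on 4 of 4 slides), so the gene's direction rests on the probe from its reference transcript.

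HNF4A probe A_72_P704336 ran from 6.76 through a median of 7.31 to 7.74 in LW and from 7.28 through 7.86 to 8.45 in CR, with 7 of 12 CR animals above every LW animal. Its CR minus LW difference was called in 10 of 10 alternatives and in 36 of 36 fits that each left out 1 animal. The probes A_72_P440506 (0.23, adjusted p = 0.0966) and A_72_P449980 (0.24, adjusted p = 0.0653) had the same sign, and A_72_P156906 the opposite one (-0.20, adjusted p = 0.211). A_72_P449980 was called with slide as a fixed block (adjusted p = 0.047), with array weights (adjusted p = 0.0481) and when LW HS replicate 4 or 5, LW TN replicate 6 or CR HS replicate 2 was left out (adjusted p from 0.0172 to 0.0391), and A_72_P440506 without LW HS replicate 5 (adjusted p = 0.0486). Without the 5 animals, A_72_P156906 was also called, lower in CR (-0.31, adjusted p = 0.0154).

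CEBPB probe A_72_P399493 ran from 6.13 through a median of 6.47 to 7.04 in LW and from 5.57 through 6.10 to 6.56 in CR, with 8 of 12 CR animals below every LW animal. All 5 CEBPB probes were negative between CR and LW (-0.14 to -0.45), and the representative probe gave -0.35 (95% interval -0.70 to 0.01, adjusted p = 0.149). Of the FOXA1 probes, only A_72_P477880 was called (0.29, adjusted p = 0.0399), and the other 4 gave -0.06 to -0.11. That call was lost with no filter on dim probes (adjusted p = 0.0513), with slide as a fixed block (adjusted p = 0.0542) and when any 1 of 15 animals was left out, with adjusted p up to 0.0743 without LW HS replicate 3. CEBPA, CEBPD, FOXA2 and NR1I2 had no called probe in this comparison, with estimates of -0.20 to 0.02, -0.08 to 0.06, 0.02 and -0.13 to 0.13. CEBPA O15014 (-0.20, adjusted p = 0.0736) passed with array weights (adjusted p = 0.0496) and without LW TN replicate 1 (adjusted p = 0.0239), CR HS replicate 4 (adjusted p = 0.0335) or CR TN replicate 6 (adjusted p = 0.0377).

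Between F1 and LW, 5 of 32 member probes of 2 genes were called, 4 higher and 1 lower in F1, against 18.4% of all kept probes (9.13% higher and 9.24% lower). The share of member probes was 15.6%. All 4 PROX1 probes were higher in F1, by 0.50 (A_72_P321423, adjusted p = 0.012), 0.50 (O12600, adjusted p = 0.0128), 0.37 (A_72_P580027, adjusted p = 0.0105) and 0.23 (A_72_P696404, adjusted p = 0.0412). For A_72_P580027, 12 of 12 F1 animals were above the LW mean. The call of A_72_P696404 was lost with no filter on dim probes (adjusted p = 0.0523) and when any 1 of 11 animals was left out (adjusted p up to 0.0825 without F1 HS replicate 4). The 1 lower probe was NR1I2 A_72_P444221 (-0.19, adjusted p = 0.0453), whose call was lost under 4 of 10 alternatives and when any 1 of 17 animals was left out, with adjusted p up to 0.0932 without F1 HS replicate 4. The representative NR1I2 probe gave 0.06 (adjusted p = 0.529).

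Without F1 TN replicate 3 alone, the F1 minus LW difference of NR1I3 A_72_P177911 went from 0.13 (adjusted p = 0.431) to 0.24 (adjusted p = 0.0154), that of FOXA1 A_72_P477880 from 0.25 (adjusted p = 0.0931) to 0.31 (adjusted p = 0.025) and that of HNF4A A_72_P156906 from -0.26 (adjusted p = 0.115) to -0.33 (adjusted p = 0.0314). Calls between F1 and LW also appeared without LW TN replicate 1 for HNF4A A_72_P156906 (adjusted p = 0.0425) and for CEBPA A_72_P399728 (adjusted p = 0.0366) and O15014 (adjusted p = 0.0222), without F1 HS replicate 2 for CEBPA O15014 (adjusted p = 0.0466), and without LW TN replicate 3 or 6 for FOXA1 A_72_P477880 (adjusted p = 0.0457 and 0.0469). Without all 5 animals, 11 of 32 member probes were called between CR and LW and 10 of 32 between F1 and LW. Over all 44796 kept probes the counts were 14779 and 14486 in place of 11856 and 8227, so calls rose among all probes too. Because these animals were picked for lying away from their type, a rise in breed calls was favoured in advance. Between CR and LW the 4 added probes were PROX1 A_72_P696404 and HNF4A A_72_P156906, given above, CEBPA O15014 (-0.25, adjusted p = 0.024) and NR1I2 A_72_P177521 (0.16, adjusted p = 0.0474). Between F1 and LW the 5 added probes were HNF4A A_72_P156906 (-0.38, adjusted p = 0.00602), FOXA1 A_72_P477880 (0.41, adjusted p = 0.00332), NR1I3 A_72_P177911 (0.28, adjusted p = 0.00445), CEBPA A_72_P399728 (-0.26, adjusted p = 0.0216) and CEBPA O15014 (-0.27, adjusted p = 0.0208).

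Between F1 and CR, 0 of 32 member probes were called in limma (674 of all kept probes, 1.5%). At an unadjusted p under 0.05 there were 6 of 32, beside 5595 of all kept probes (12.5%). Against the mean of the parental breeds, 0 of 32 were called for F1 (502 of all kept probes, 1.12%). An unadjusted p under 0.05 was found for 5 of 32, beside 6807 of all kept probes (15.2%). PROX1 had F1 minus mid-parent estimates of 0.16 to 0.25 over its 4 probes. Without the 5 animals, 3 of 32 member probes were called against the mid-parent value, beside 7624 of 44796 kept probes. These were PROX1 A_72_P321423 (0.30, adjusted p = 0.0306) and A_72_P580027 (0.31, adjusted p = 0.0108) and NR1I2 A_72_P444221 (-0.20, adjusted p = 0.0151).

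**Figure D3:**
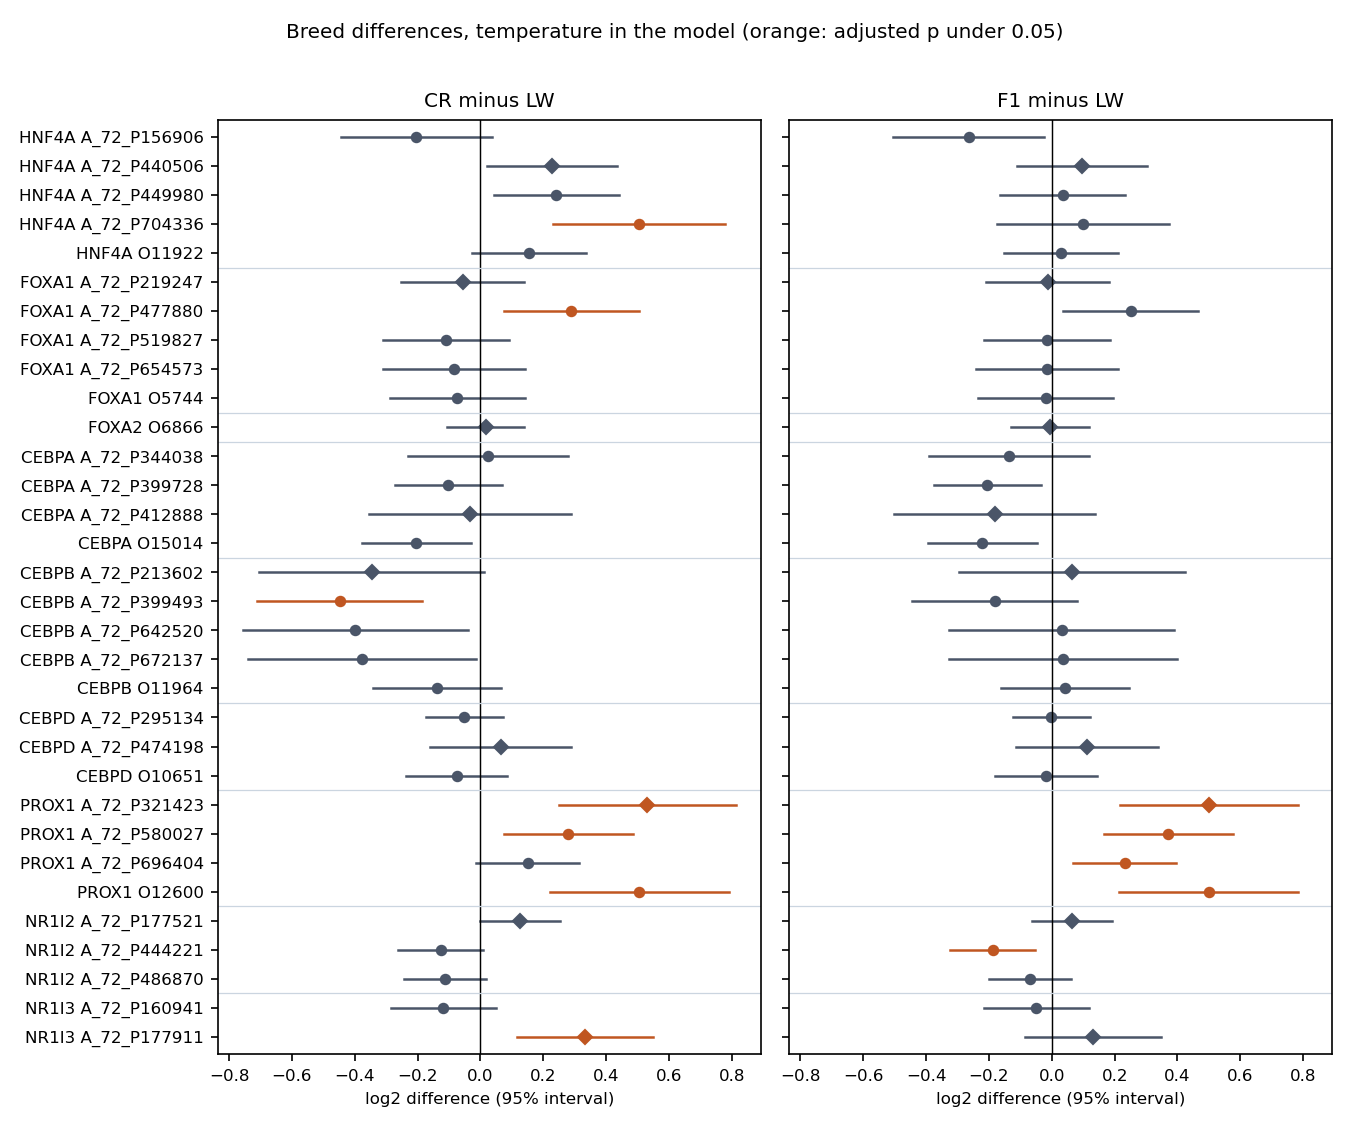
Difference of CR from LW (left) and of F1 from LW (right) in log2 units with 95% interval (horizontal axes) for the 32 probes, with temperature in the model; orange marks adjusted p under 0.05 and diamonds are representative probes. PROX1 lies to the right in both panels (0.15 to 0.53 and 0.23 to 0.50), while NR1I3, FOXA1 and HNF4A have probes on both sides in the left panel.

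Markers of other liver cell types moved with breed. Between CR and LW, 8 of 10 Kupffer cell and macrophage genes were lower in CR (median -0.83), as were 8 of 10 endothelial genes (median -0.50) and 7 of 11 lymphocyte genes (median -0.46), beside 4 of 12 hepatocyte genes (median -0.03), 1 of 10 stellate cell genes and 0 of 4 erythroid genes, and 1 of 8 cholangiocyte genes was higher. The summed Kupffer cell signal was 15.99 to 16.58 in LW TN and 16.23 to 16.44 in LW HS animals, and 15.63 to 15.98 in CR TN and 15.36 to 15.91 in CR HS animals. The summed endothelial signal was 14.79 to 15.30 over LW and 14.34 to 14.92 over CR. The summed lymphocyte signal overlapped between the breeds. It was 11.39 to 11.83 in LW TN and 11.41 to 11.77 in LW HS animals, and 11.24 to 11.57 in CR TN and 11.28 to 11.57 in CR HS animals. Between F1 and LW, 8 of 10 Kupffer cell, 6 of 10 endothelial, 6 of 11 lymphocyte and 2 of 10 stellate cell genes were lower in F1, with 0 of 12 hepatocyte genes called. The summed endothelial signal of F1 was 14.46 to 14.92 at TN and 14.82 to 15.29 at HS, so that F1 HS animals overlapped LW TN animals (14.79 to 15.26). PROX1 is itself expressed in lymphatic endothelium. The part of cell makeup in the PROX1, NR1I3, HNF4A and CEBPB differences was not tested. Between HS and TN, 0 genes of any of the 7 marker sets were called, beside 0.952% of all gene symbols.

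**Figure D4:**
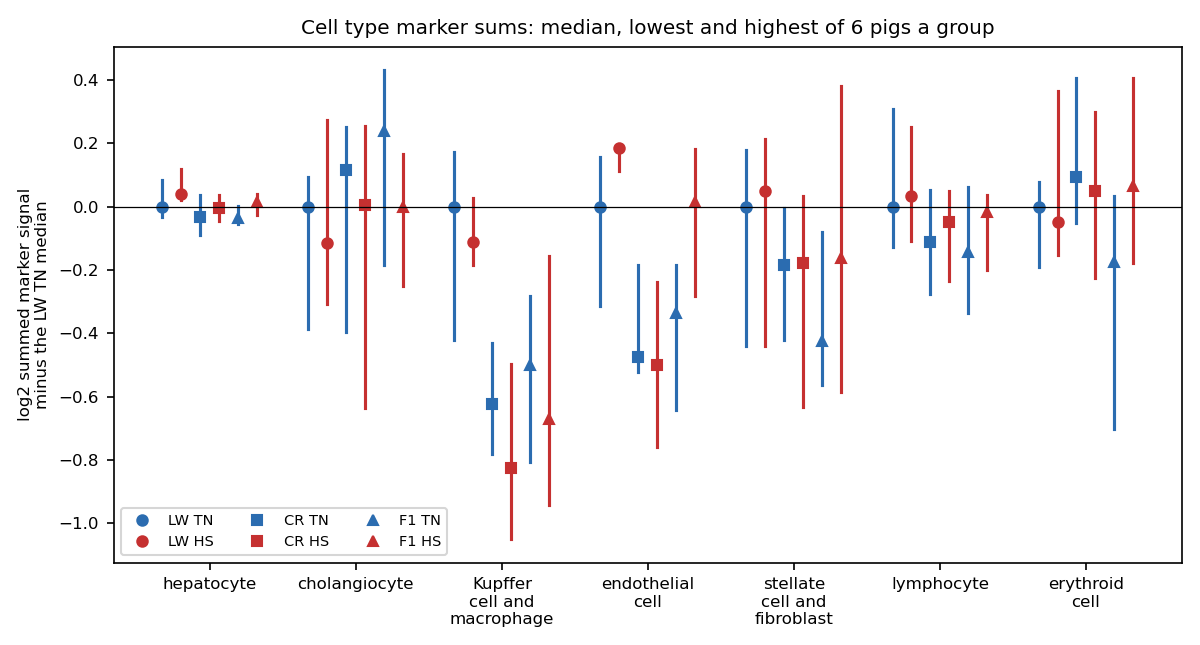
Summed signal of the marker genes of 7 cell types in the 6 groups (log2 units relative to the LW TN median, vertical axis), as the median with the lowest and highest of 6 pigs. Kupffer cell sums of CR (15.36 to 15.98) lie below those of LW (15.99 to 16.58). Hepatocyte sums stay within a narrow band, but quantile normalization limits how far sums of very bright probes can vary. The band therefore does not measure the share of hepatocytes.

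The genes linked to these factors in the literature were counted by their representative probe. Over all 10505 gene symbols, 0.952% were called between HS and TN, 25.9% between CR and LW and 17.3% between F1 and LW. Under heat, 2 of 25 measured HNF4A-linked genes were called, 1 in each direction, and MTTP, which loads lipid onto apolipoprotein B, was lower (-0.20, adjusted p = 0.0413, with 1 of 2 kept probes called). Of 23 acute phase genes, 1 was called, HAMP, the iron hormone hepcidin (3.70, adjusted p = 0.0245). Among 35 other liver transcription factors and nuclear receptors, KLF9, a glucocorticoid- and thyroid hormone-responsive factor (-0.63, adjusted p = 0.00462), and ESR1, the estrogen receptor (-0.33, adjusted p = 0.00892), were lower. Of their kept probes, 10 of 11 were called for KLF9 but only 1 of 4 for ESR1. None of 17 FOXA- and CEBPA-linked genes, 25 PXR- and CAR-linked genes, 18 coregulators and chaperones and 10 further C/EBP family members and partners was called. The median heat difference of each of the 7 lists lay between -0.01 and 0.04.

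Between CR and LW, 7 of 25 PXR- and CAR-linked genes were called, 4 higher and 3 lower in CR. The 3 of largest size were CYP2B22 (1.30, adjusted p = 0.00425), GSTA1 (1.17, adjusted p = 0.042) and CYP3A46 (0.52, adjusted p = 0.000337), which encode a pig CYP2B enzyme, a glutathione transferase and a CYP3A enzyme. Of 25 HNF4A-linked genes 8 were called, 2 higher and 6 lower, with HPD of tyrosine breakdown (0.46, adjusted p = 0.000107) and the anticoagulant PROC (-0.40, adjusted p = 1.9e-05) at the largest sizes. Of 23 acute phase genes 8 were called, 6 of them lower, with serum amyloid genes SAA3 (-1.31, adjusted p = 0.0423) and SAA2 (-1.29, adjusted p = 0.0458) and the endotoxin-binding LBP (-0.73, adjusted p = 0.0034) at the largest sizes. SAA2 and SAA3 are related paralogs, so their probes may read both transcripts. For CYP3A46 and for HPD, 2 of 5 kept probes were called.

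Of 17 FOXA- and CEBPA-linked genes, 5 were called between CR and LW, 2 higher and 3 lower, among them the fibrinogen chain FGG (-0.40, adjusted p = 5.66e-05) and the urea cycle enzyme ASS1 (0.22, adjusted p = 0.0481). All 5 called coregulators of 18 were higher in CR, with NCOA2 (0.36, adjusted p = 0.00357), SMARCA4 (0.20, adjusted p = 0.034) and NCOR1 (0.20, adjusted p = 0.0263) at the largest sizes. JUN, a dimer partner of C/EBP factors, was the 1 called gene of 10 in its list (0.57, adjusted p = 0.00368). Of 35 other liver factors 6 were called, 2 higher and 4 lower, including the vascular and venous factor NR2F2 (-0.42, adjusted p = 0.000292) and the secretory factor XBP1 (-0.40, adjusted p = 0.00462). Kept probes were called in part for NR2F2 (1 of 3) and NCOR1 (2 of 3). The list medians lay between -0.09 and 0.12. For most of these lists the called share lay near the 25.9% of all gene symbols (11.7% higher and 14.3% lower in CR).

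Between F1 and LW, the same lists held 5 of 25 (PXR and CAR), 6 of 25 (HNF4A), 5 of 23 (acute phase), 3 of 17 (FOXA and CEBPA), 3 of 18 (coregulators), 2 of 10 (C/EBP partners) and 5 of 35 (other factors) called genes. Of these, 3 were higher and 2 lower in F1 in the PXR and CAR list, 1 higher and 5 lower in the HNF4A list, 2 higher and 3 lower in the acute phase list, 2 higher and 1 lower in the FOXA and CEBPA list, 3 higher among the coregulators, 1 in each direction among the C/EBP partners, and 4 higher and 1 lower among the other factors. CYP7A1, the rate-limiting enzyme of bile acid synthesis, was lower in F1 (-0.95, adjusted p = 0.0214). HPD (0.53, adjusted p = 0.000102), CYP3A46 (0.49, adjusted p = 0.00169), CYP3A29 (0.42, adjusted p = 0.0158), HSP90AA1 (0.49, adjusted p = 0.017), NCOA2 (0.30, adjusted p = 0.0186), the acetyltransferase EP300 (0.27, adjusted p = 0.00615), JUN (0.60, adjusted p = 0.0051), NR2F1 (0.31, adjusted p = 0.00293), RXRA, the dimer partner of PXR and CAR (0.24, adjusted p = 0.0136), IL1R1 (0.48, adjusted p = 0.00967), ASS1 (0.29, adjusted p = 0.0166) and FGA (0.26, adjusted p = 0.0448) were higher. GSTA4 (-0.62, adjusted p = 0.0191), LBP (-0.55, adjusted p = 0.0362), ITIH4 (-0.44, adjusted p = 0.0286), BATF (-0.45, adjusted p = 0.0217), NR2F2 (-0.29, adjusted p = 0.0118) and FGG (-0.25, adjusted p = 0.00938) were lower. Several of these genes had kept probes that were not called. The called share was 1 of 2 for CYP7A1, FGA and NR2F1, 1 of 3 for NR2F2 and 2 of 3 for FGG. It was 2 of 5 for HPD and CYP3A46, 2 of 8 for HSP90AA1, 4 of 7 for EP300, and 3 of 4 for NCOA2 and ITIH4. CR and F1 were both compared with the same LW animals.

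Covariation between the factors was examined over 36 pigs after the 6 group means were removed, with permutation within groups (100000 draws, two-sided) and adjustment over 36 pairs. None passed the threshold by Pearson's r, and 4 had an unadjusted p under 0.05. CEBPB and PROX1 came nearest (r = 0.562, permutation p = 0.00185, adjusted p = 0.0666) and passed by Spearman's rho (0.608, permutation p = 0.0005, adjusted p = 0.018). The r was 0.729 without the 2 animals of most extreme CEBPB, 0.628 (adjusted p = 0.00684) with slide means removed too, and 0.531 (adjusted p = 0.138) with the processed signal. CEBPA and NR1I3 had r = 0.613 (permutation p = 0.0317, adjusted p = 0.286) and rho = 0.299 (permutation p = 0.104, adjusted p = 0.932), but r was 0.179 without the 2 animals of most extreme CEBPA, so it rested on those, one being F1 TN replicate 3. FOXA2 with CEBPD (r = -0.427, permutation p = 0.0136, adjusted p = 0.245; rho = -0.4, permutation p = 0.0213, adjusted p = 0.3) and FOXA1 with CEBPB (r = -0.376, permutation p = 0.03, adjusted p = 0.286; rho = -0.271, permutation p = 0.139, adjusted p = 0.946) changed to -0.401 and -0.296 without the 2 extreme animals.

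**Figure D5:**
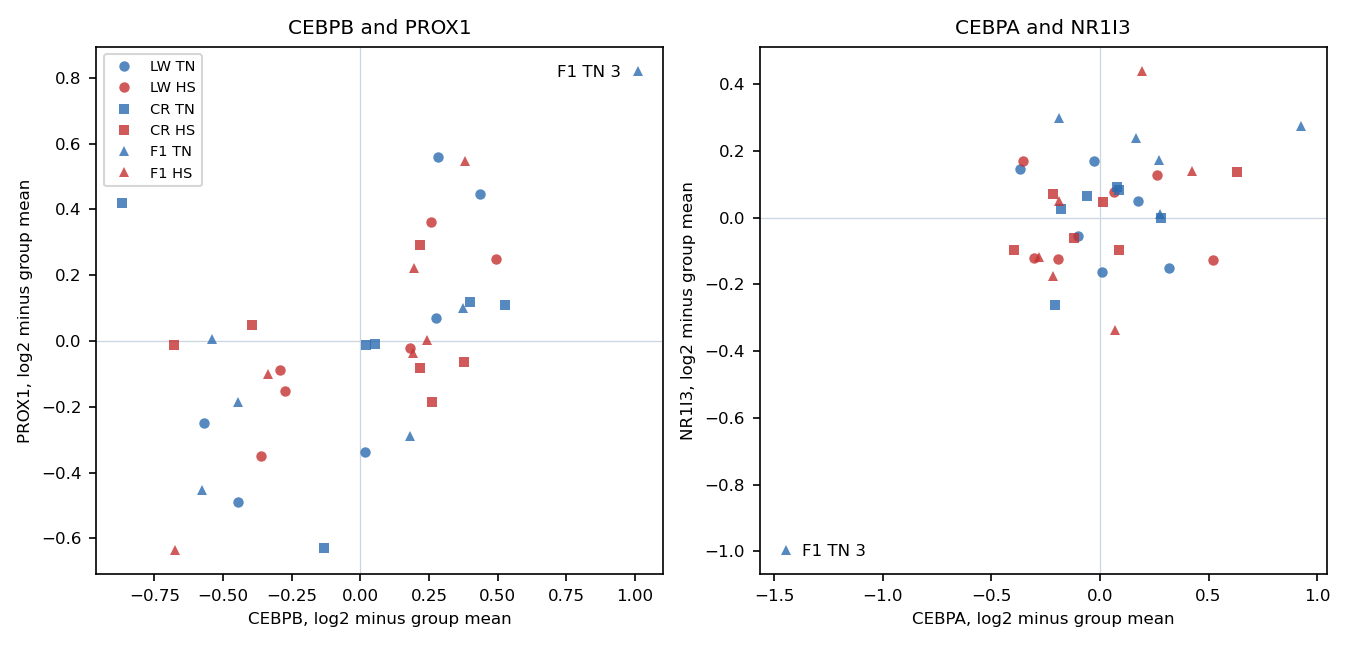
Signal of CEBPB against PROX1 (left) and of CEBPA against NR1I3 (right), each as log2 units from the mean of the animal's group, for 36 pigs in 6 groups. F1 TN replicate 3 lies at the edge of both panels, and without the 2 extreme animals r is 0.729 on the left and 0.179 on the right.

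Of 13 pairs of a factor and a gene it is known to regulate, 0 passed the threshold over the same animals, and 3 had an unadjusted p under 0.05. CEBPB with haptoglobin (HP) gave r = 0.44 (permutation p = 0.0121, adjusted p = 0.104; rho = 0.414, permutation p = 0.0204, adjusted p = 0.133; r = 0.422 without the 2 extreme animals), but r = 0.284 (adjusted p = 0.323) with the processed signal and 0.335 (adjusted p = 0.258) with slide means removed. NR1I2 with the drug exporter ABCB1 gave r = -0.405 (permutation p = 0.016, adjusted p = 0.104; rho = -0.405, permutation p = 0.0179, adjusted p = 0.133; r = -0.348 without the 2 extreme animals), and it passed with the processed signal (r = -0.495, adjusted p = 0.0216) and with slide means removed (r = -0.57, adjusted p = 0.00637). CEBPA with albumin (ALB) gave r = -0.27 with quantile-normalized and 0.388 with processed signals (adjusted p = 0.181 and 0.221), so its sign depends on the scaling. NR1I3 with CYP2B22 gave r = 0.21 (permutation p = 0.172, adjusted p = 0.526; rho = 0.357, permutation p = 0.0345, adjusted p = 0.15), and r was 0.216 without the 2 extreme animals.

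Across 10488 gene symbols, those whose representative probe was most like each factor over the 36 arrays were listed by Pearson's r, which includes the differences between groups. For CEBPB they were SLC25A25, a mitochondrial carrier (0.82), G6PC, the glucose-6-phosphatase of gluconeogenesis (0.77), and TOB1, an antiproliferative factor (0.77), and the values were 0.74, 0.73 and 0.75 after group means were removed. For PROX1 they were NEURL4 (0.80), RTP2 (0.75) and DENND4B (0.75), with 0.66, 0.68 and 0.61 after group means were removed. For NR1I2 they were ABCA9 (0.80), FAM209B (0.74) and KCTD15 (0.72), and for NR1I3 they were ZSCAN2 (0.76), ZMYND8 (0.75) and MLXIPL, which encodes the glucose-sensing factor ChREBP (0.75). HNF4A was most like RFFL (0.72), TECTB (0.65) and MITF (0.65), and FOXA1 most like NADK2 (0.70), ATP1B1 (0.70) and NR0B1 (0.65). CEBPA was most like TIPARP (0.65), SLC4A1 (0.64) and ARRDC3 (0.63), CEBPD was like USP8 (0.58) and SIRT6 (0.54), and FOXA2 most like FITM1 (0.59), GP2 (0.57) and ATP4B (0.56). The points share slides and, within a group, breed and temperature.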

How the data were processed

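Liver RNA of 36 pigs was hybridized to 1-colour Agilent arrays. The authors deposited scanner tables from Agilent Feature Extraction 10.10.1.1, whose median signals are spot intensity values not normalized between arrays, and a series table of log2 values normalized by the authors. Groups came from the labels. Here, log2 median signals were quantile normalized over 60306 non-control spots (limma 3.58.1, R 4.3.3), 107 non-uniform spots were set as missing, and probes well above background on at least 6 arrays were kept (44796 of 60305). No spot was saturated. Genes were named from the files and the RefSeq table of assembly Sscrofa11.1, and 3 of 4 probes named CAR were left out, 2 of them being coxsackie-adenovirus receptor probes. No sequence was placed on a genome here. Linear models with breed and temperature, and with 6 group means, used lmFit and eBayes on all 36 animals, with Benjamini-Hochberg adjustment over all kept probes and a threshold of 0.05. The study's random effects (pen, slaughter day, parents) are not in the labels. Group means were removed before correlations were permuted.

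Members, lists and tests were chosen with earlier results of these data known. Named genes were all members, called list genes under heat (at most 6 a list), the 3 largest called differences a list between breeds, and the 3 genes most like each member; some of these are not reported here. The fit was tested on simulated data. The number of arrays limits the precision. Alternatives were the processed signal, normexp, the authors' log2 values, other filters on dim probes, slide as a block, array weights, trended and robust eBayes, and leaving out animals.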

Additional observations from a re-analysis of the deposited data

Results flagged for a closer look

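Of 192 groups of 6 animals tested over the 32 probes, 7 held a value whose gap to its nearest neighbour was more than 0.625 of the group's range, and chance flags about 1 group in 20. FOXA2 O6866 was highest in F1 TN replicate 4 (5.88, next 5.56). CEBPB O11964 was highest in F1 HS replicate 5 (7.05, next 6.06). CEBPD A_72_P474198 was lowest in F1 HS replicate 6 (11.85, next 12.46). PROX1 O12600 was highest in F1 TN replicate 3 (10.82, next 10.03). NR1I2 A_72_P177521 was lowest in LW TN replicate 2 (11.08, next 11.31). NR1I3 A_72_P177911 was lowest in CR TN replicate 4 (14.90, next 15.16) and in F1 TN replicate 3 (13.74, next 14.75).

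For CEBPD O10651, every HS animal was below the TN mean in LW and above it in CR, with F1 mixed. The test of the difference between breeds gave an unadjusted p of 0.0117 and an adjusted p of 0.995 in limma. This probe was dim (group means 5.45 to 5.74) and above background on 4 of 6 CR TN and 4 of 6 F1 TN arrays. It may read the strand opposite to the CEBPD mRNA, which was not tested, so the pattern is not shown for the gene.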

How the results depend on the processing

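With the main settings, 0, 7 and 5 member probes were called between HS and TN, CR and LW, and F1 and LW. The HS minus TN count was 1 with the processed signal (beside 344 of 44796 probes), 2 with the authors' log2 values (456 of 42051) and 1 with slide as a fixed block (531 of 44796). The F1 minus LW count was 9 of 32 with array weights, beside 11901 of 44796 probes, and 3 of 32 with no filter on dim probes, beside 7369 of 60305. With the 5 animals left out, a setting chosen after seeing the data, the CR minus LW count was 11, the F1 minus LW count 10 and the F1 minus mid-parent count 3. Beside these, 14779, 14486 and 7624 of 44796 kept probes were called. Over all probes, HS minus TN calls ran from 277 to 531 under these alternatives and from 202 to 529 when 1 animal was left out. Against main counts of 502 for F1 minus mid-parent, 674 for F1 minus CR and 0 for heat within CR, array weights gave 1935, 1082 and 13, and leaving out the 5 animals gave 7624, 1072 and 0. Heat within CR had 5, 8 and 17 calls with the authors' log2 values, with no filter and with probes above background on all 36 arrays, none of them a member, and heat within F1 had 7 with slide as a fixed block against 4. Leaving out each animal in turn gave 0 to 3 member calls between HS and TN, 5 to 8 between CR and LW, 3 to 8 between F1 and LW and 0 to 0 in the other comparisons. In the same fits, all-probe calls ran from 10599 to 12690 between CR and LW and from 6275 to 9860 between F1 and LW. Of 13203 values of single probes under an alternative, 13089 kept their side of the threshold and no called value changed sign, 63 lost a call, 51 gained one, and 324 had the opposite sign without being called under either setting. One pair of members passed with slide means removed (1 of 36), and 1 of 13 pairs of a member and a target passed with the processed signal and 1 with slide means removed. The causes were not tested. No paired analysis was possible because replicate numbers were given in accession order and pair no animals. HNF4A O11922, CEBPD A_72_P295134 and O10651, and FOXA2 O6866 lay near background, which limits what they can show.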

Other observations

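F1 TN replicate 3 held the extreme value of its group in 7 of the 9 representative probes, with the lowest HNF4A (8.86), FOXA1 (9.97), CEBPA (13.03), NR1I2 (10.92) and NR1I3 (13.74) and the highest CEBPB (13.19) and PROX1 (10.88) signals.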
